A study of Mus musculus with 6 samples.

Results

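The peroxiredoxins and the thioredoxin system were followed in long-term blood stem cells (LT-HSCs), the rare bone marrow cells that can rebuild all blood lineages. The members were the rows of the deposited gene table whose gene name was Prdx1, Prdx2, Prdx3, Prdx4, Prdx5, Prdx6, Txn1, Txn2, Txnrd1 or Txnrd2. These gave 10 of the 55487 rows, and all 10 passed the filter on low counts that kept 15298 genes for testing. They were grouped by the place of their protein in the cell: cytosolic (Prdx1, Prdx2, Prdx6, Txn1, Txnrd1), mitochondrial (Prdx3, Prdx5, Txn2, Txnrd2) and secretory (Prdx4).

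Peroxiredoxins are abundant thiol enzymes that destroy hydrogen peroxide with a reactive cysteine. Most of them are returned to the active state by thioredoxin, a small dithiol protein, which thioredoxin reductase recharges with electrons from NADPH. Each compartment has its own set, so that the cytosol uses Txn1 and Txnrd1, the mitochondrial matrix uses Txn2 and Txnrd2, and Prdx4 works in the lumen of the endoplasmic reticulum, where it passes oxidising equivalents to protein disulfide isomerases. Stem cells of the marrow are held in a low-oxidant state, and a rise in reactive oxygen species is known to drive them out of quiescence.

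Bulk RNA sequencing was done on LT-HSCs of wild-type mice that had not been irradiated. One group of 3 libraries came from mice given saline and the other group of 3 libraries from mice given carnosine, the dipeptide of beta-alanine and histidine. The cells had been sorted by surface protein as negative for lineage markers, Flk2 and CD34 and positive for Sca-1 and c-Kit. The sources used here give no dose, length of treatment or number of animals, and neither age nor sex, nor do they say that the libraries of a group came from separate mice, so the p-values measure only the spread between these libraries, which may be technical.

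The libraries held 10304539 to 13251332 counts, and 3 counts in a library corresponded to 0.226 to 0.291 CPM (counts scaled to the size of the library). Over all genes tested with edgeR's quasi-likelihood test, 1455 of 15298 (9.51%) were higher in carnosine and 1283 (8.39%) were lower, at a Benjamini-Hochberg adjusted p under 0.05. In 3016 genes (19.7%) all 3 carnosine libraries lay above all 3 saline libraries, and in 2911 (19%) they all lay below. The median log2 fold change over all genes was 0.00. Of 11 markers of long-term stem cells 1 was called higher and 0 lower, with a median log2 fold change of 0.03. The one called was Mecom (63.7 and 72.7 CPM), a call lost whichever library was left out. In saline the list ran from Hoxb5 at 1.75 and Slamf1 at 4.28 CPM to Hlf at 215 and Meis1 at 239 CPM. RNA of the gate's negative markers was present in both groups. Flt3 (which encodes Flk2) was at 818 and 775 CPM and Cd34 at 857 and 861 CPM in saline and carnosine. Kit, which encodes the positive marker c-Kit, was at 546 and 530 CPM. The purity of the sorted cells was not tested.

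Promoter windows are shown for 4 members: the 2 that held the antioxidant response element core, and the 2 members with the largest log2 fold change among those called. No binding or accessibility was measured. RefSeq windows on GRCm38.p6 reach from 250 bases before the transcription start to 50 bases after it. Each is written 5′ to 3′ on the strand of the gene, and capitals mark a match to the antioxidant response element core, the site at which NRF2 and small MAF proteins bind.
Prdx1, chr4:116685349-116685648, plus strand: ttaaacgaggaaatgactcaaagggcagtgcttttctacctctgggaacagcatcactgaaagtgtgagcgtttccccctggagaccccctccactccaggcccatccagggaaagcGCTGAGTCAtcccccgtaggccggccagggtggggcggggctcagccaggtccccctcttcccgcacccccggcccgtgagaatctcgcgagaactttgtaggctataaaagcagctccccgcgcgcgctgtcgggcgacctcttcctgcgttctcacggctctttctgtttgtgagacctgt
Txnrd1, chr10:82858956-82859255, plus strand: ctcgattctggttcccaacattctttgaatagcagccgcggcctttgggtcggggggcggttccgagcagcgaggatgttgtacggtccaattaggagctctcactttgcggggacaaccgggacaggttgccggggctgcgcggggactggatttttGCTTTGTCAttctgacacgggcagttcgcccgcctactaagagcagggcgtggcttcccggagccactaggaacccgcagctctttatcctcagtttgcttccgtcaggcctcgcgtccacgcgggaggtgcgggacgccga
Txn1, chr4:57956362-57956661, minus strand: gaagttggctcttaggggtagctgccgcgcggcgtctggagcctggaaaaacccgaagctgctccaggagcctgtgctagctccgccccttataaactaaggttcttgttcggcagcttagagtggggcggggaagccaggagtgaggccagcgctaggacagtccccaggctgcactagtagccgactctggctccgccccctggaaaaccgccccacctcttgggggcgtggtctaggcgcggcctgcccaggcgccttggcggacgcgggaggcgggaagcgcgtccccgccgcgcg
Prdx4, chrX:155338411-155338710, minus strand: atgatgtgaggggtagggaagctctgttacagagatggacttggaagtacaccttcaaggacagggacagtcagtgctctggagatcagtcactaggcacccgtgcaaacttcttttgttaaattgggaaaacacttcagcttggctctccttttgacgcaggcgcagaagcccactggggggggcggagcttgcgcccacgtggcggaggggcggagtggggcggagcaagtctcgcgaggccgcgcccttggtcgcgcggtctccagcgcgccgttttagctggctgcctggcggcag

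The antioxidant response element core was searched as TGACNNNGC on both strands. It was found in 12.4% of 32851 promoter windows of 300 bases in the RefSeq set, and in at least 1 window of 14.0% of 27025 genes. Windows were present for 9 of the 10 members, 11 windows in all, since Txnrd1 has 3 starts, and 2 of the 9 held the core. Prdx1 held GCTGAGTCA, read on the strand of the gene, from 133 to 125 bases before the start (positions -133 to -125). Txnrd1 held GCTTTGTCA at positions -92 to -84 of the window printed above. The core of the unfolded protein response element, TGACGTGG on either strand, was found in 0.676% of all windows and in none of the members' windows. The Prdx4 window lies at the RefSeq start, inside the span that the deposited table gives the gene. These matches describe letters in the windows and say nothing of binding.

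Of the 10 members 5 were higher in LT-HSCs of carnosine-treated mice and 0 were lower (edgeR, adjusted p under 0.05), beside 9.51% of all genes called higher and 8.39% called lower. The secretory peroxiredoxin Prdx4 rose 1.61-fold, Txn1 rose by 0.37 on the log2 scale, and Prdx2, Prdx3 and Txnrd1 rose by 0.17 to 0.28. At an unadjusted p under 0.05 the counts were 6 higher and 0 lower, beside 16.8% and 16% of all genes. In 6 of the 10, carnosine libraries lay above saline libraries without overlap, beside 19.7% of all genes. The median log2 fold change of the members was 0.19. Their counts are set beside the background only, and no test was made of the group as a whole. By compartment, 3 of 5 cytosolic, 1 of 4 mitochondrial and the 1 secretory member were called higher. In bulk RNA, more cells of a type that is rich in a transcript and more transcript per cell cannot be told apart.

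**Figure D1:**
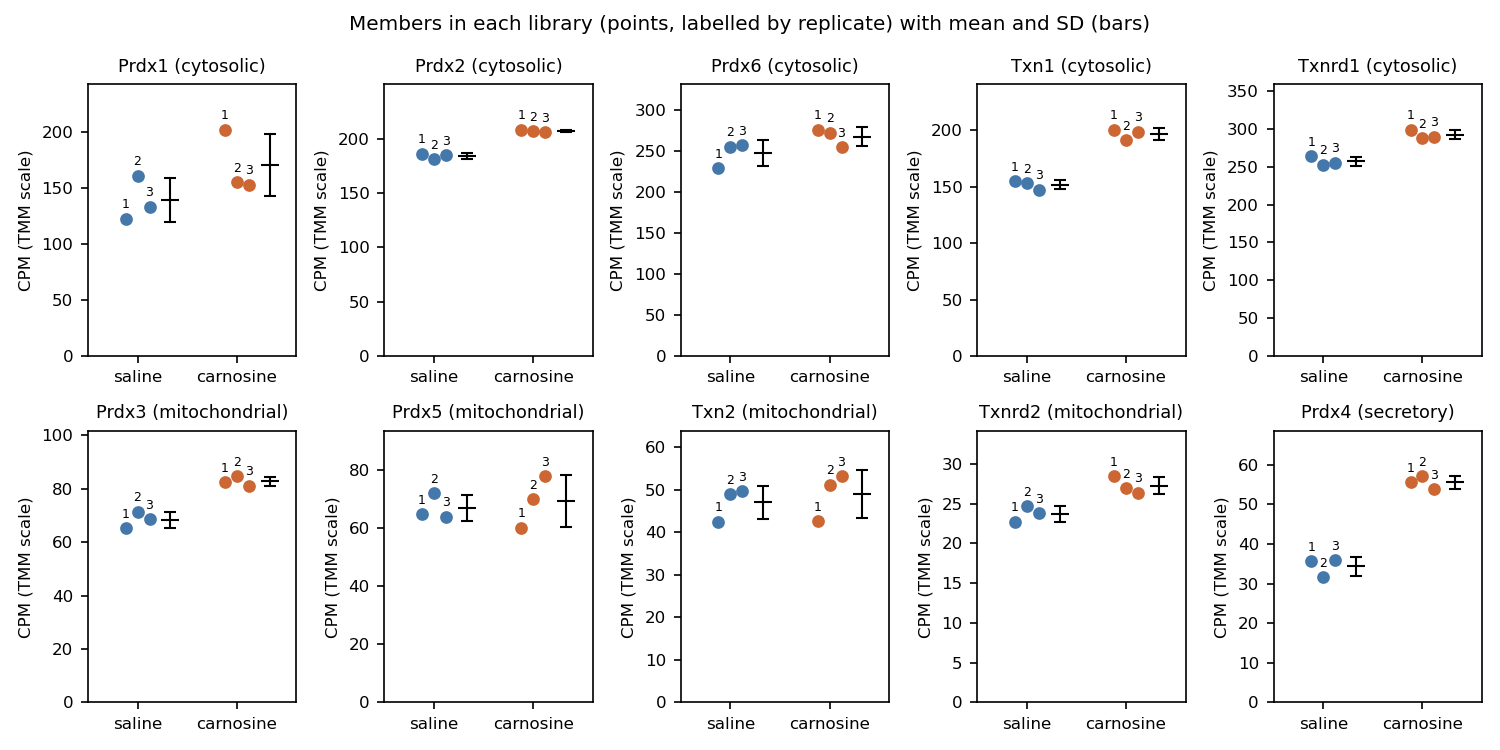
CPM on the TMM scale (vertical axis, from 0) of each member in each saline and carnosine library, with points numbered by replicate and bars for mean and SD (n = 3). Relative to its level Prdx4 has the widest gap between the groups, from 31.7 to 35.9 CPM in saline and from 53.9 to 57.1 CPM in carnosine, while Prdx1, Prdx5, Prdx6 and Txn2 overlap.

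Among the cytosolic members, Txn1 (ENSMUSG00000028367, chr4:57943373-57956411, minus strand, GRCm38), the disulfide reductase that regenerates peroxiredoxins and ribonucleotide reductase, was at 155, 153 and 148 CPM in the saline libraries 1 to 3. In the carnosine libraries it was at 201, 191 and 199 CPM. All carnosine libraries were high, and the lowest of them stood clear of the highest saline library. The means were 152 ± 3.82 and 197 ± 5.04 CPM (SD, n = 3), and the log2 fold change was 0.37 (SE 0.04, 95% interval 0.29 to 0.46, edgeR adjusted p = 0.000537).

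Its reductase Txnrd1 (ENSMUSG00000020250, chr10:82833951-82897712, plus strand), a selenoprotein that takes electrons from NADPH, was at 264, 253 and 255 CPM in saline and at 299, 288 and 290 CPM in carnosine. The groups did not overlap, and the step was smaller than that of Txn1. The log2 fold change was 0.18 (SE 0.03, interval 0.11 to 0.25, edgeR adjusted p = 0.00605). Eid3 lies inside the span of Txnrd1 on the same strand, with 37 to 84 counts a library against 2601 to 3821 for Txnrd1.

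Prdx2 (ENSMUSG00000005161, chr8:84969587-84974834, plus strand), the peroxiredoxin best known from red cells, was at 186, 181 and 185 CPM in saline and at 208, 207 and 206 CPM in carnosine. The libraries of each group lay close together, with a within-group SD of 0.02 on the log2 scale against a median of 0.12 over all genes. The difference was small but larger than this spread, 0.17 on the log2 scale (SE 0.03, interval 0.10 to 0.23, edgeR adjusted p = 0.00675). Markers of red cell precursors were also higher: 9 of 15 tested were called higher and 0 lower, 12 and 0 at an unadjusted p under 0.05, with a median log2 fold change of 0.79. The summed level of the list was 525 to 548 CPM in saline and 672 to 717 CPM in carnosine, and none of its genes was at 0 in every library. Its 5 most abundant genes were the carbonic anhydrase Car2 (328 and 365 CPM), the transferrin receptor Tfrc (126 and 137 CPM, not called), and Hbb-bt (15.5 and 48.2 CPM), Hba-a1 (13.7 and 45.3 CPM) and Car1 (17.5 and 23.4 CPM). The call of Car2 was lost without any 1 of the libraries other than carnosine library 3, and that of Car1 without carnosine library 1 (edgeR adjusted p up to 0.0801 and 0.0573). Hba-a1 and Hba-a2 are near-identical, so reads could be split between them, and the part of red cell RNA in the change of Prdx2 was not tested.

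Prdx1 (ENSMUSG00000028691, chr4:116685544-116700822, plus strand), the other main peroxiredoxin of the cytosol and nucleus, was at 123, 161 and 133 CPM in saline and at 202, 156 and 153 CPM in carnosine. Carnosine library 1 was high and saline library 2 lay above 2 of the carnosine libraries. The log2 fold change of 0.29 was as large as that of Prdx3 but did not pass the test (SE 0.13, interval -0.02 to 0.60, edgeR adjusted p = 0.170). It was 0.15 without carnosine library 1 and 0.41 without saline library 2, and was not called in either case (edgeR adjusted p = 0.412 and 0.0917). The within-group SD of Prdx1 was 0.21 on the log2 scale, wider than that of Prdx2.

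Prdx6 (ENSMUSG00000026701, chr1:161240112-161251219, minus strand), the 1-cysteine member that is also a phospholipase and is reduced by glutathione rather than by thioredoxin, was at 229, 256 and 258 CPM in saline and at 276, 273 and 255 CPM in carnosine. The groups overlapped at their near ends. The log2 fold change was 0.11 (SE 0.05, interval -0.01 to 0.24, edgeR adjusted p = 0.182).

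Among the mitochondrial members, Prdx3 (ENSMUSG00000024997, chr19:60864051-60874556, minus strand), the main peroxidase of the matrix, was at 65.3, 71.4 and 68.6 CPM in saline. In carnosine it was at 82.6, 84.7 and 81.2 CPM. Every carnosine library lay above every saline library, and the log2 fold change was 0.28 (SE 0.05, interval 0.16 to 0.39, edgeR adjusted p = 0.00877).

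The reductase of the matrix, Txnrd2 (ENSMUSG00000075704, chr16:18426384-18479073, plus strand), was at 22.7, 24.7 and 23.8 CPM in saline and at 28.4, 26.9 and 26.4 CPM in carnosine. It did not overlap between the groups, but did not pass the test over all genes (log2 fold change 0.20, SE 0.07, interval 0.04 to 0.36, edgeR adjusted p = 0.0871).

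Txn2 (ENSMUSG00000005354, chr15:77915047-77929006, minus strand), the thioredoxin of the matrix, was at 42.4, 48.9 and 49.7 CPM in saline and at 42.6, 51.2 and 53.1 CPM in carnosine. The 2 groups covered nearly the same range, each with its library 1 lowest. The log2 fold change was 0.06 (SE 0.10, interval -0.17 to 0.29, edgeR adjusted p = 0.724), so that a change of the size of Txnrd2's lies within the interval.

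Prdx5 (ENSMUSG00000024953, chr19:6906697-6910106, minus strand), an atypical peroxiredoxin also found in peroxisomes and cytosol, was at 64.7, 72.1 and 64.0 CPM in saline. In carnosine it was at 60.2, 70.0 and 77.9 CPM. Carnosine held both the lowest and the highest library, and the log2 fold change was 0.05 (SE 0.10, interval -0.17 to 0.28, edgeR adjusted p = 0.746). Both Prdx5 and Txn2 changed sign when 1 library was left out: Prdx5 was at -0.04 without carnosine library 3, and Txn2 was at -0.01 without saline library 1 and at -0.00 without carnosine library 3.

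Prdx4 (ENSMUSG00000025289, chrX:155323918-155340754, minus strand), the peroxiredoxin of the endoplasmic reticulum, was at 35.7, 31.7 and 35.9 CPM in saline and at 55.6, 57.1 and 53.9 CPM in carnosine. All carnosine libraries were high, and the lowest of them exceeded the highest saline library by more than the range of either group. The means were 34.4 ± 2.38 and 55.6 ± 1.62 CPM (SD, n = 3), and the gene test gave a difference of 0.69 on the log2 scale (interval 0.54 to 0.84, SE 0.07; edgeR adjusted p = 0.000585).

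**Figure D2:**
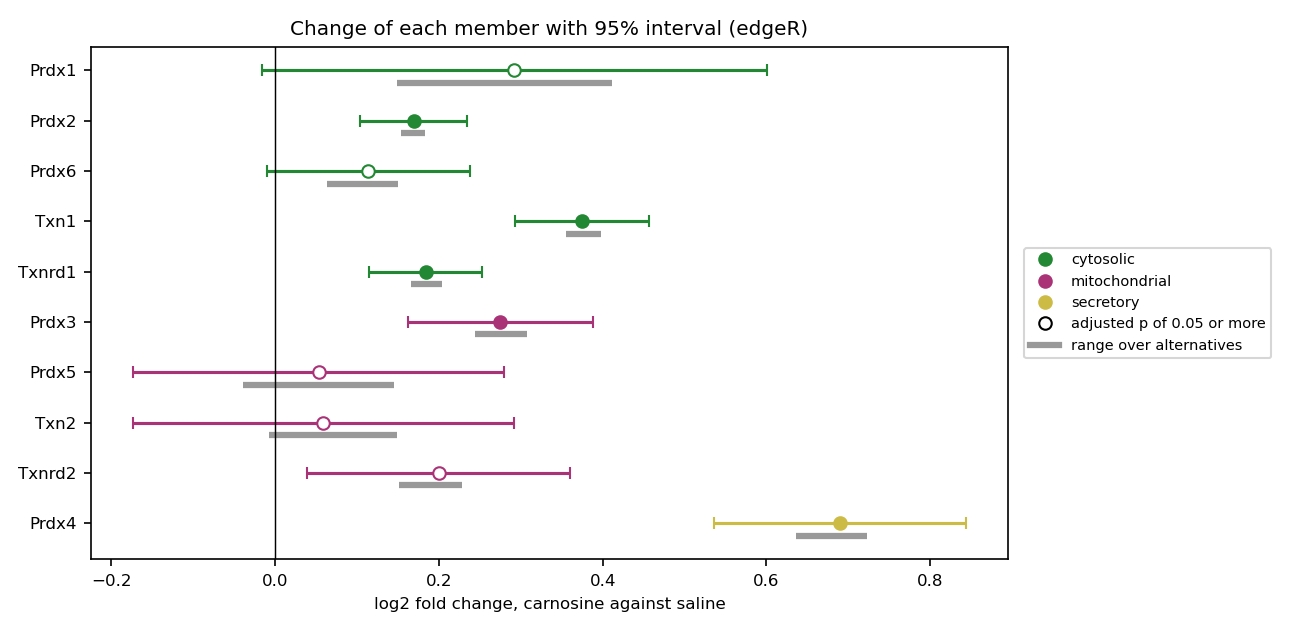
Log2 fold change of each member, carnosine against saline (horizontal axis), with its 95% interval from edgeR, and a grey bar for the range over the alternative settings. Filled points passed an adjusted p of 0.05; the interval of Prdx4 (0.54 to 0.84) lies to the right of those of the other 4 filled points, and the intervals of Prdx5 and Txn2 reach both sides of 0.

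The same 5 members were called in each of the 19 alternative settings, which covered other tools, scalings and filters, the FPKM values and each library left out in turn. The ratio of Prdx4 to other members was also taken in each library, a quantity that depends on neither library size nor, in its change, on gene length. Prdx4 CPM over Prdx2 CPM was 0.192, 0.175 and 0.194 in saline and 0.267, 0.276 and 0.262 in carnosine. Prdx4 over Txn1 was 0.231, 0.207 and 0.243 in saline and 0.277, 0.299 and 0.271 in carnosine. Neither ratio overlapped between the groups, so that Prdx4 rose by more than Prdx2 and Txn1 in these libraries. The ratio of the reductases, Txnrd1 over Txnrd2, was 10.9 ± 0.695 in saline and 10.7 ± 0.240 in carnosine (SD, n = 3) and overlapped. An exact two-sided permutation test gave p = 0.1 for each of the Prdx4 ratios and for Txn1 over Txn2, the smallest that 3 against 3 libraries allow, p = 0.2 for Prdx3 over Prdx5 and p = 0.8 for the reductases. Adjusted over the 5 pairs compared, these were 0.167, 0.25 and 0.8.

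Markers of plasma cells, antibody-secreting cells that are rich in endoplasmic reticulum, also differed between the groups. Of 17 tested, 9 were called higher and 2 lower (10 and 2 at an unadjusted p under 0.05), with a median log2 fold change of 0.62 and a summed level of 1539 to 1622 CPM in saline and 4081 to 4379 CPM in carnosine. The immunoglobulin genes Igha (591 and 2250 CPM) and Igkc (276 and 901 CPM) and the joining chain Jchain (136 and 456 CPM) were higher, while Ighm (324 and 266 CPM) was lower. Among genes that define the cell type, the transcription factors Irf4 (7.75 and 12.1 CPM) and Prdm1 (1.26 and 3.26 CPM) were higher. The call of Prdm1 was lost without any 1 of the libraries other than saline library 3 (edgeR adjusted p up to 0.122). Ighg2b, the last of the 5 most abundant, was higher (40.8 and 130 CPM). The surface protein Sdc1 was lower (37.7 and 27.8 CPM), and the secretory regulator Xbp1 was at 61.0 and 65.2 CPM without a call (edgeR adjusted p = 0.692). No marker of the list was at 0 in every library, and Tnfrsf17, with 2 to 8 counts a library, was below the filter. The part of plasma cell RNA in the rise of Prdx4 was not tested.

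**Figure D3:**
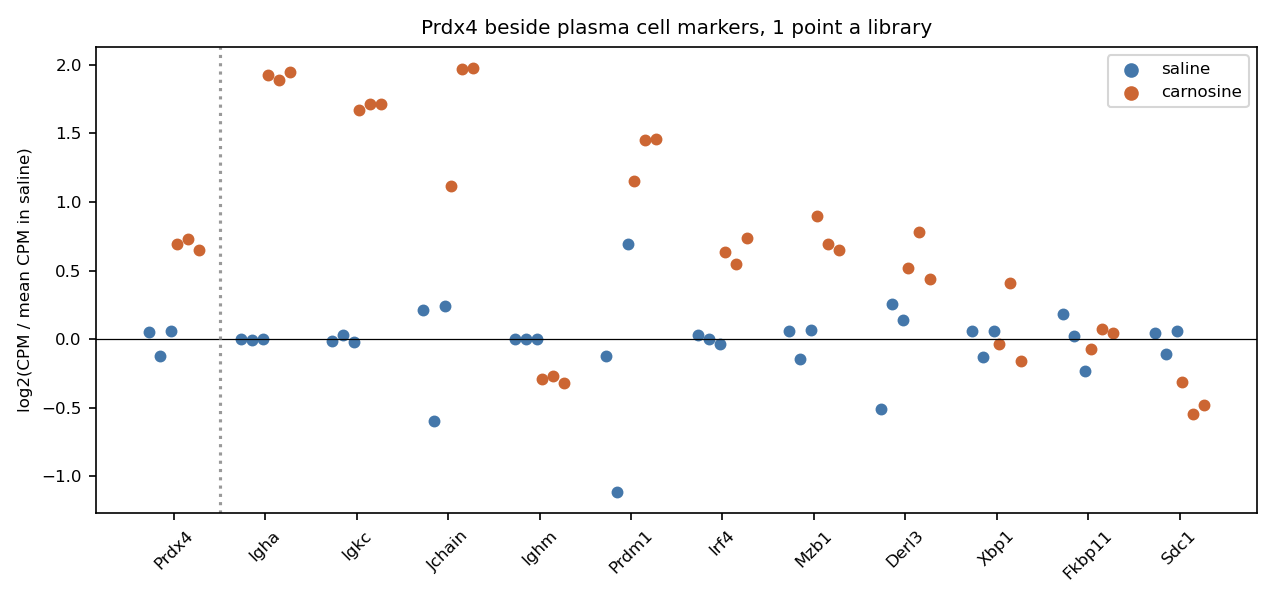
Log2 of the CPM in each library over the mean CPM of the saline libraries (vertical axis), for Prdx4 and 11 plasma cell markers, 1 point a library. Prdx4, the immunoglobulin genes Igha and Igkc, and the joining chain Jchain have carnosine libraries above all saline libraries. Ighm and Sdc1 have them below, and Xbp1 and Fkbp11 overlap.

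In the other lists of cell types reported, most calls were lower in carnosine. Over all genes 9.51% were called higher and 8.39% lower. Of 13 neutrophil markers 7 were tested, and the rest were below the filter. Of the 7, 0 were called higher and 3 lower (0 and 4 at an unadjusted p under 0.05). The summed level was 715 to 728 CPM in saline and 450 to 466 CPM in carnosine. The calls were Mpo (516 and 306 CPM), which led the sum, Elane and Ctsg. Prtn3, S100a8, S100a9 and Ltf were not called. Over the alternative settings the log2 fold change was -0.46 to -0.26 for Prtn3 and 0.19 to 0.55 for S100a9. Those of S100a8 and Ltf took both signs when single libraries were left out. Macrophage and monocyte markers had 0 higher and 1 lower of 9 (Csf1r, 1 and 3 unadjusted), and T and NK cell markers 0 higher and 1 lower of 5 (Cd4, 0 and 2 unadjusted). Megakaryocyte and platelet markers had 1 higher (Itgb3) and 1 lower (Pf4) of 6. The call of Cd4 was lost whichever library was left out (edgeR adjusted p up to 0.117), and that of Pf4 without any 1 of the carnosine libraries (up to 0.0598). The call of Itgb3 held without saline library 3 or carnosine library 2 and was lost without each of the others (up to 0.0658). Of the 4 genes of the sorting gate 0 were called in either direction, 1 lower at an unadjusted p under 0.05.

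The order of the members was read per length, from the deposited FPKM. These FPKM divide by a gene length that equals the summed length of all distinct annotated exons, counted again where exons of different transcripts overlap, exactly for the 10 members and within 0.5 bases for 14174 of 14532 genes (97.5%). The divisor was 9135 bases for Prdx6, whose principal transcript has 2387, and 1051 bases for Txn1, whose principal transcript has the same 1051. The order between genes was therefore also taken per kilobase of the principal transcript.

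On the FPKM scale in saline, Txn1 was highest at 144 ± 3.79 FPKM (SD, n = 3). Prdx3 followed at 46.3, then Prdx2 at 34.9 and Prdx1 at 34.0, whose libraries overlapped. Prdx6 was at 27.1, Txnrd1 at 22.9, Prdx5 at 16.7, Prdx4 at 14.0, Txn2 at 7.72 and Txnrd2 at 3.27 FPKM. Among these neighbours in the order, Prdx2 and Prdx1 did not differ beyond their spread. In carnosine Prdx4, at 22.5 FPKM, stood above Prdx5, at 17.3 FPKM, and the order was otherwise the same except that Prdx1 and Prdx2, still overlapping, changed places.

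As CPM per kilobase of the longest principal transcript, Txn1 was still first in both groups, at 144 and 186, with Prdx2 (114 and 128), Prdx6 (104 and 112) and Txnrd1 (72.8 and 82.4) next. Prdx3, second on the FPKM scale, took the seventh place here, at 46.3 and 55.8. Prdx4 rose from 34.7 to 55.9 on this scale, and in carnosine it overlapped Prdx3 and Prdx5. With the shortest principal transcript Prdx1 came first, at 159 and 193, and overlapped Prdx2 and Txn1 in both groups. The top place thus depended on the transcript length. Txnrd2 was the lowest on all 3 scales. Txn2 was the next lowest except with the shortest transcript in saline, where it overlapped Prdx4 (36.2 and 34.7).

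**Figure D4:**
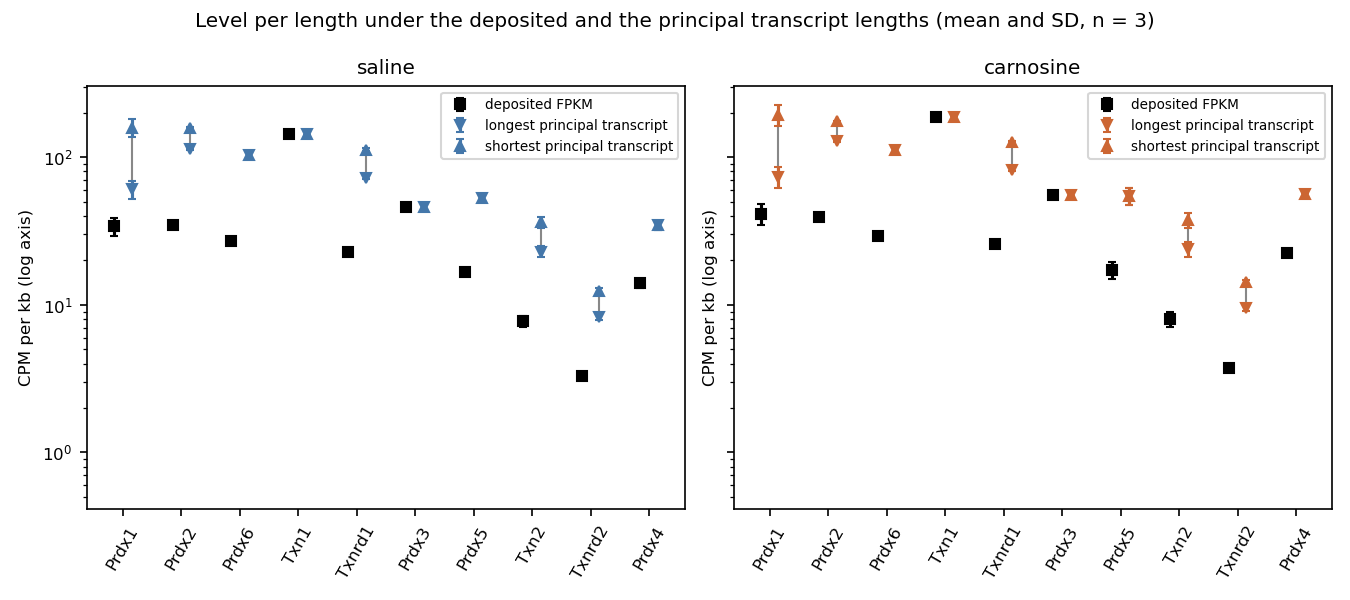
Level of each member per kilobase (vertical log axis) in saline and in carnosine, with mean and SD (n = 3). Squares are the deposited FPKM and triangles are counts per kilobase of the longest and shortest principal transcript; Txn1 and Prdx3 have the same value on the FPKM and longest transcript scales, and the other members lie higher on the transcript scales.

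Summed over a compartment, the cytosolic members gave 263 ± 5.83 FPKM in saline and 322 ± 11.6 FPKM in carnosine, a ratio of 1.22. The mitochondrial members gave 74.0 ± 3.58 and 84.8 ± 2.87 FPKM, a ratio of 1.15, and without Prdx5 57.3 and 67.6 FPKM, a ratio of 1.18. Prdx4 alone gave the secretory sum, 14.0 and 22.5 FPKM, a ratio of 1.61. The cytosolic share of all members was 75.0% in both groups. The secretory share was 3.57% to 4.19% in saline and 5.12% to 5.46% in carnosine, and the mitochondrial share 20.4% to 21.6% and 18.6% to 20.5%. Of these 3 shares the secretory share alone did not overlap between the groups. Txn1 made up most of the cytosolic sum on the FPKM scale only. Per kilobase of the longest principal transcript it was at 144 of a cytosolic sum of 496 in saline. On that scale the cytosolic ratio was 1.18 and the mitochondrial ratio 1.10, and with the shortest transcript they were 1.18 and 1.10. On these scales too, the secretory share alone did not overlap between the groups.

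Reads of near-identical copies could be split between genes, since the sources used here do not say how reads with several matches were counted. A search of annotated transcripts (at least 90% identity over at least 100 bases) found the expressed copies Gm21399 (98.3% identical over 597 bases, 128 to 217 counts) and Gm7204 (97.5%, 50 to 74 counts) for Prdx1. It found Tdpx-ps1 (96.3%, 79 to 146 counts) for Prdx2 and Txn-ps1 (95.8%, 8 to 17 counts) for Txn1. With copies summed, the log2 fold changes were 0.30 for Prdx1 (edgeR adjusted p = 0.131), 0.17 for Prdx2 and 0.37 for Txn1, which ended no call and made none. Prdx2 also shares 181 bases with Rnaseh2a on the opposite strand (444 to 720 counts), and Prdx5 shares 409 bases with Trmt112 (127 to 170 counts). The sources used here do not say whether strand was used in counting.

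The genes that work around the members were taken as 5 lists. The counts of each stand beside 9.51% of all genes called higher and 8.39% called lower. At an unadjusted p under 0.05 these shares were 16.8% and 16%. In the list of 23 partners and regulators of thioredoxin, 7 were higher and 0 lower (10 and 0 at an unadjusted p under 0.05). Its median log2 fold change was 0.17. The list also holds genes of the glutathione system, the glutaredoxins Glrx, Glrx2, Glrx3 and Glrx5 and the reductase Gsr, of which Gsr alone was called. Rrm1, the large subunit of the ribonucleotide reductase that thioredoxin recharges, rose from 308 to 415 CPM (log2 fold change 0.43, SE 0.03, edgeR adjusted p = 0.000107). The import receptor Ipo7 rose from 337 to 412 CPM, and the glutathione reductase Gsr from 63.1 to 78.9 CPM (edgeR adjusted p = 0.000446 and 0.00912). Srxn1, the sulfiredoxin that repairs overoxidised peroxiredoxins, had 86, 102 and 105 counts in saline and 164, 146 and 157 in carnosine. Its groups did not overlap, and its log2 fold change was 0.60 (SE 0.12, edgeR adjusted p = 0.0159). That call was lost without saline library 1, saline library 3 or carnosine library 1, with adjusted p up to 0.0568. The list had 4, 3 and 3 genes called higher without these 3 libraries.

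The inhibitor of thioredoxin, Txnip, had 1790, 1789 and 3641 counts in saline and 2359, 1910 and 1670 in carnosine. Saline library 3 was high and the groups overlapped, and the difference of -0.30 on the log2 scale was not called (SE 0.22, edgeR adjusted p = 0.387). Txnrd3, the third reductase, was at 23.6 and 27.2 CPM (log2 fold change 0.21, edgeR adjusted p = 0.0699).

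NADPH is the electron source of the reductases. The list of its supply holds enzymes that make NADPH and others of the same pathways that do not, and 15 were tested. Of these 7 were higher and 0 lower (8 and 1 at an unadjusted p under 0.05), with a median log2 fold change of 0.14. The folate enzyme Mthfd1l rose from 103 to 138 CPM (log2 fold change 0.42, edgeR adjusted p = 0.000322), Mthfd1 from 141 to 163 CPM and Mthfd2 from 21.9 to 27.0 CPM (edgeR adjusted p = 0.00392 and 0.0238). The call of Mthfd2 was lost without any 1 of the libraries other than carnosine library 1 (adjusted p up to 0.0703). The folate enzymes Mthfd2l and Aldh1l1 of the same list had log2 fold changes of -0.08 and -0.09 without a call (edgeR adjusted p = 0.695 and 0.591). The mitochondrial malic enzyme Me2 rose from 56.8 to 72.6 CPM (edgeR adjusted p = 0.00262). The dehydrogenases G6pdx, Pgd and Idh1 were not called, with log2 fold changes of 0.14, -0.08 and -0.28 (edgeR adjusted p = 0.0739, 0.254 and 0.0663). The other calls were Idh2, Me1 and Taldo1, higher, each lost without some single libraries (edgeR adjusted p up to 0.0877, 0.139 and 0.102). Leaving out saline library 1, saline library 3 or carnosine library 2 left 3 genes called higher, and leaving out carnosine library 1 or 3 left 4.

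Of 24 genes of disulfide formation in the secretory pathway, where Prdx4 acts, 5 were higher and 2 lower (8 and 2 at an unadjusted p under 0.05), with a median log2 fold change of 0.09. The disulfide reductase Dnajc10 rose from 94.2 to 113 CPM (edgeR adjusted p = 0.0101), and the membrane thioredoxin Tmx1 from 104 to 120 CPM (0.0146). The oxidase Qsox1 rose from 83.6 to 97.1 CPM, while the isomerase Pdia4 fell from 138 to 124 CPM (edgeR adjusted p = 0.0414 and 0.0356). The other calls were Txndc11 and Tmx3, higher, and Selenos, lower. Selenos was lost whichever library was left out, Txndc11 without any 1 other than carnosine library 3, and Tmx3 without any 1 other than carnosine library 1 (edgeR adjusted p up to 0.133, 0.119 and 0.129). Qsox1 and Pdia4 were called without saline library 1 and lost without each of the others (edgeR adjusted p up to 0.112 and 0.108). Among the 7 genes called, none had a fold change as large as that of Prdx4. The oxidase Ero1l, which works in parallel with Prdx4, was at 40.9 and 42.7 CPM without a call (edgeR adjusted p = 0.626). The 5 calls fell to 2 without saline library 2, saline library 3 or carnosine library 2 and to 3 without saline library 1 or carnosine library 3. The 2 lower calls fell to 1 without saline library 1 and to 0 without any other library.

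The regulator NRF2, which drives Prdx1, Txn1, Txnrd1 and Srxn1 in many cells, is encoded by Nfe2l2. Nfe2l2 was at 69.6 and 60.4 CPM (log2 fold change -0.20, edgeR adjusted p = 0.0562), and its inhibitor Keap1 at 90.2 and 90.3 CPM. Nfe2l2 was called lower without carnosine library 3 and with upper quartile scaling (edgeR adjusted p = 0.0245 and 0.0425), each of which gave 2 genes of the list called lower. Of 15 tested genes of NRF2, its regulators and its targets, 1 was higher and 1 lower (3 and 2 at an unadjusted p under 0.05), with a median log2 fold change of 0.04. The partner Mafk fell from 239 to 185 CPM (log2 fold change -0.37, edgeR adjusted p = 0.000698). Gclc, which starts glutathione synthesis, rose from 57.7 to 65.3 CPM (edgeR adjusted p = 0.0463), and this call was lost whichever library was left out. Bach1, a repressor at the same sites, was at 97.9 and 106 CPM (edgeR adjusted p = 0.0858).

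Both reductases need selenocysteine. Of 11 genes of selenoprotein synthesis, 0 were higher and 1 lower, beside 9.51% and 8.39% of all genes. At an unadjusted p under 0.05 the counts were 1 and 1, and the median log2 fold change was 0.01. The one called was Secisbp2, which binds the selenocysteine signal of the messages and fell from 61.8 to 49.2 CPM (log2 fold change -0.33, edgeR adjusted p = 0.00806). Without saline library 1, Eefsec, the elongation factor for selenocysteine, was called higher (log2 fold change 0.25, edgeR adjusted p = 0.0476).

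**Figure D5:**
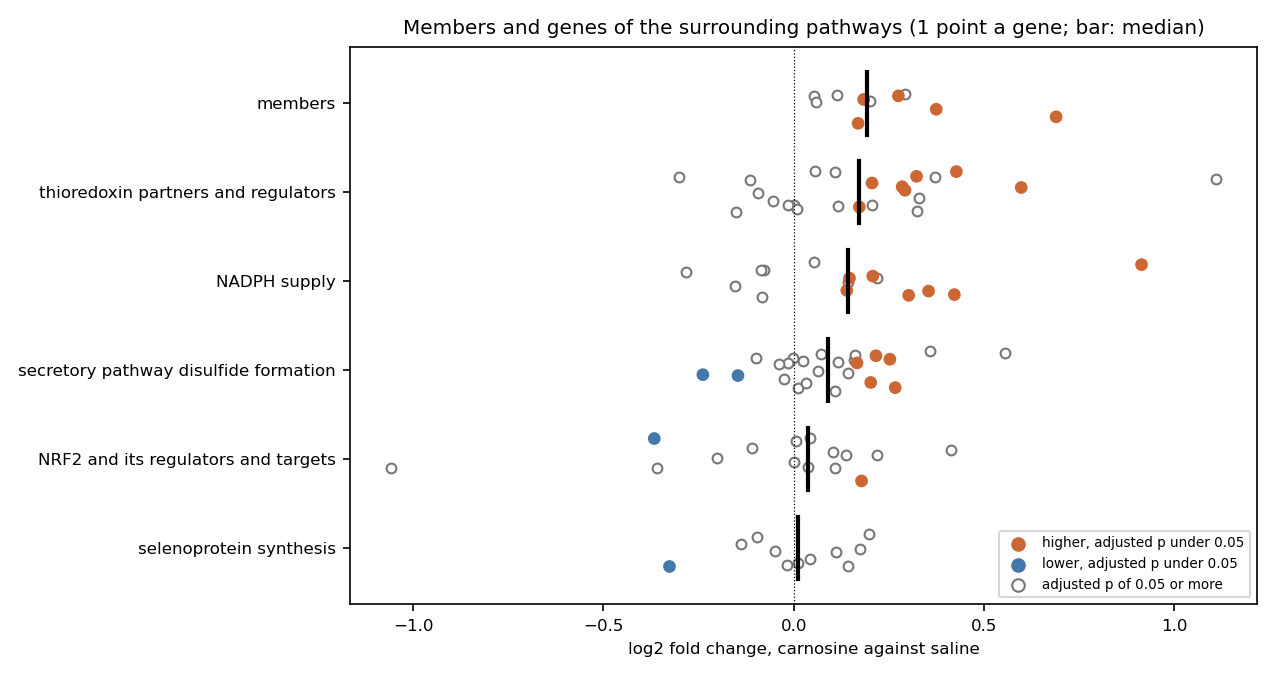
Log2 fold change, carnosine against saline (horizontal axis), of the 10 members and of the tested genes of 5 lists around them, 1 point a gene, with a bar at the median. The highest medians are 0.19 in the members and 0.17 in the list of thioredoxin partners, glutaredoxins included. The lowest are 0.04 in NRF2 and its targets and 0.01 in selenoprotein synthesis.

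The genes whose profile over the 6 libraries lay closest to that of Prdx4 were sought among 11265 genes, by the root mean square difference of log2 CPM after centring each gene on its own mean. They were Gpr65 (0.04), Chst2 (0.05), Rhd (0.06), Rasgef1b (0.06) and Rnf125 (0.07). Gpr65, a proton-sensing receptor, was at 20.4 CPM in saline and 31.5 CPM in carnosine. Closest to Txn1 were AI506816 (0.02), Etfa (0.02), Fbxo11 (0.02), Cirbp (0.02) and Tuba1b (0.03), of which Etfa, an electron carrier subunit of the mitochondria, was at 70.5 and 89.9 CPM. These are descriptions over 6 libraries that fall into 2 groups.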

How the data were processed

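Libraries were made from poly-A RNA with a stranded paired-end kit, from samples with an RNA integrity number above 7.0, and sequenced on an Illumina NovaSeq, per the labels' protocols. Build GRCm38 and the tools HISAT2, StringTie, edgeR and CASAVA 1.8 come from the submitters' processing notes. Of the annotation release, the strand setting and reads with several matches, each is not given in the sources used here. The authors deposited, per the file headers, raw counts and FPKM for each gene and library. The counts were whole numbers and were used as deposited. The FPKM deposited by the authors were compared with the counts to find the gene length behind them, using GENCODE M21 on GRCm38.

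Counts were scaled with TMM (factors 0.998 to 1.003), filtered with filterByExpr on the group and tested with edgeR's quasi-likelihood test (version 4.0.16, R 4.3.3). The test was two-sided, p was adjusted after Benjamini and Hochberg over the 15298 genes that passed, and a gene was called at an adjusted p under 0.05. CPM are on the TMM scale and are given as mean and SD over 3 libraries. A positive log2 fold change means higher in carnosine, and SE is its standard error. The limits given for 3 counts cover counting error only, since reads carry no molecular identifiers. Copies were sought with blastn 2.17.0 among transcripts. Promoter windows are from RefSeq on GRCm38.p6.

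Lists were described by counts of genes called and by medians, without a set test. Nnt was left out of its list because 2 overlapping rows carry the name. The genes named were all members, up to 4 genes with the smallest p in each pathway list, Nfe2l2, Keap1, Txnip, Srxn1 and Txnrd3, the 5 most abundant genes of the marker lists described in full, and the 5 genes most alike to Prdx4 and to Txn1, leaving out predicted genes, pseudogenes and immunoglobulin segments. Other genes named were added after their values were seen. They were Ero1l, Txndc5, Txndc11, Tmx3, Selenos, Eefsec, Mthfd2l, Aldh1l1, G6pdx, Pgd, Idh1, Idh2, Me1 and Taldo1. From the marker lists they were stem cell and gate markers (Mecom included), defining plasma cell markers, the tested neutrophil markers and genes called in other lists. Ftl1, of the NRF2 list, was added in the same way. The members, lists and tests were chosen with earlier results of these data known.

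Alternatives were DESeq2 1.42.0, limma-voom (limma 3.58.1), scaling by relative log expression, upper quartile or totals only, no filter, a filter of 1 CPM in 3 libraries, a threshold of 0.01, a replicate block, limma-trend on log2 of FPKM with pseudocounts of 1 and 0.1, immunoglobulin segments left out, and each library left out in turn. Summing copies with a member and using the principal transcript length were added after seeing the data. Some results are not reported here. The scripts were tested on simulated data.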

Additional observations from a re-analysis of the deposited data

How the results depend on the processing

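The counts of members called, 5 higher and 0 lower, were the same under all settings tried, the replicate block included, and the members' log2 fold changes ranged from 0.64 to 0.72 for Prdx4, from 0.36 to 0.40 for Txn1, from 0.24 to 0.31 for Prdx3, from 0.17 to 0.20 for Txnrd1 and from 0.15 to 0.18 for Prdx2. The largest adjusted p of these 5 was 0.0325. Over all genes the number higher, 1455, was 603 at a threshold of 0.01, 946 with the replicate block and 932 to 1009 with a library left out (952 without saline library 2, 932 without carnosine library 1 and 955 without carnosine library 3). The number lower, 1283, was 504 at 0.01, 812 with DESeq2, 810 with the replicate block and 801 to 883 with a library left out, the highest without carnosine library 2. The labels do not say that replicate numbers pair the libraries. Deviations of same-numbered libraries correlated at -0.05, -0.07 and 0.02, and not every library correlated best with its own number. These correlations over all genes cannot settle whether the numbers mark pairs or batches, since single genes can follow the number. Ftl1 had 4646 and 4489 counts in saline and carnosine library 3, and 1479 to 1960 in the other libraries. Among the lists, NADPH supply had 3 genes higher with the block and 3 with DESeq2 in place of 7. Disulfide formation had 2 higher and 0 lower with the block and 3 and 0 with DESeq2, in place of 5 and 2. NRF2 and its targets had 0 higher with either. Txndc5, an isomerase of the disulfide formation list, had a log2 fold change of -0.03. It was called higher at 0.23 without carnosine library 1 and was at -0.20 without carnosine library 3. It had 817 counts in carnosine library 1 against 1328 and 1784 in the other carnosine libraries. Changes in scaling moved the median of all genes by at most 0.02 on the log2 scale.

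Srxn1 had 86 to 164 counts a library, and the members 236 or more. Its SE of 0.12 was below the 0.13 of Prdx1, which had 1276 to 2438 counts. With 3 libraries a group, an interval of a member such as Prdx5 or Txn2 still holds changes of 0.28 on the log2 scale.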
